A study of Mus musculus with 10 samples.

Results

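The AMPA and kainate receptor subunit genes were described across paired RNA-seq libraries of 2 types of layer 5 intratelencephalic projection neuron (IT-PN) of the mouse motor cortex. Members were chosen by gene symbol, with earlier results of these data known, as the genes *Gria1* to *Gria4* of the AMPA receptor family and *Grik1* to *Grik5* of the kainate receptor family. These are 9 of the 24453 genes that were counted, and each of the 9 had at least 1 read.

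Each of 5 male *Fezf2-Gfp* mice of strain (Zfp312-EGFP)CO61GsatMmnc, which express GFP under regulatory elements of *Fezf2*, gave 1 library of each type. Cholera toxin subunit b coupled to Alexa 647 (CTB), a tracer carried back along axons to the cell body, was placed in the left primary motor cortex (M1) at postnatal day 23 to 25. Layer 5 of the right M1 was dissected at postnatal day 28 to 32 and dissociated, and cells were separated by FACS. *Fezf2+ve* IT-PNs were cells with both GFP and CTB, and *Fezf2−ve* IT-PNs were cells with CTB alone, so both types came from animals that carried the transgene and had received the tracer. The groups are therefore limited by what each fluorescent signal stands for, namely activity of the transgene for GFP and uptake of the tracer for CTB. RNA of the sorted cells was amplified by PCR and by in vitro transcription before sequencing.

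AMPA and kainate receptors are ion channels that open when glutamate binds and carry fast excitatory current at synapses. AMPA receptors are built from the GRIA subunits and provide most of that current between cortical projection neurons, and GRIA2, after editing of its RNA, makes the channel nearly impermeable to calcium. Kainate receptors are built from the GRIK subunits, of which GRIK1, GRIK2 and GRIK3 can form channels by themselves whereas GRIK4 and GRIK5 need one of these as a partner.

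Depth was low in every library. The *Fezf2+ve* libraries of animals 1 to 5 held 118134, 107643, 118069, 151591 and 203379 reads on genes. The *Fezf2−ve* libraries of the same animals held 167916, 89138, 168711, 211368 and 217738. A count of 0 allows up to 3 reads, which is 13.8 to 33.7 CPM (read counts scaled to a common total) by library size, depending on the library. After TMM normalization the floor differs, and in the *Fezf2+ve* library of animal 4 it was 35.3 CPM in place of 19.8. This floor covers counting error only, since amplified reads are not independent molecules. In the *Fezf2+ve* library of animal 1, *Sema6a* alone took 29.8% of the reads on genes, and ERCC spike-in RNA took 46.7% of all reads counted on genes or spike-ins. Levels are given below as log2(CPM + 1) after TMM normalization, with the SD over the 5 libraries of a type.

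The cell type labels were first compared with markers. Neuronal markers were sparse in both types. The 5 pan-neuronal markers together had 4 to 38 reads per library, *Syt1* had the most with 72 reads over all libraries, and *Nefl* was at 0. Their summed level was 6.99 ± 1.15 (SD, n = 5) in *Fezf2+ve* against 5.48 ± 0.39 in *Fezf2−ve* IT-PNs and was higher in *Fezf2+ve* in 5 of 5 animals. Among the 5 markers of excitatory projection neurons, *Slc17a7*, the vesicular glutamate transporter of cortical neurons, had 0 to 3 reads per library. *Camk2a* held 588 reads, of which 529 lay in the *Fezf2−ve* library of animal 3. The summed level of these 5 was 4.98 ± 3.01 in *Fezf2+ve* against 6.06 ± 3.22 in *Fezf2−ve* IT-PNs and was higher in *Fezf2+ve* in 3 of 5 animals. The paired difference was -1.08 (SD 4.07), but -0.071 without animal 3 and 0.096 without animal 4. The 4 layer 5 markers had 0 to 7 reads per library together, with *Rbp4* at 0 and *Fezf2* itself at 1 read, in the *Fezf2+ve* library of animal 5. Their summed level was 4.60 ± 0.69 in *Fezf2+ve* against 2.78 ± 1.69 in *Fezf2−ve* IT-PNs and was higher in *Fezf2+ve* in 5 of 5 animals. *Etv1* led this list with 23 reads over all libraries and was itself higher in *Fezf2+ve* in 4 of 5 animals. Thus the defining markers *Slc17a7*, *Rbp4* and *Fezf2* were at 0 or at no more than 3 reads in any library, and the names *Fezf2+ve* and *Fezf2−ve* IT-PN are used below for the sorted fractions as labelled.

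Markers of other cell types were present, and those of microglia separated the types. The 10 microglia markers together had 28, 19, 11, 10 and 23 reads in *Fezf2+ve* animals 1 to 5. In *Fezf2−ve* they had 1035, 406, 1098, 329 and 856 reads. Every *Fezf2−ve* library thus lay above every *Fezf2+ve* library, with summed levels of 12.01 ± 0.46 (SD, n = 5) and 7.02 ± 0.57. None of these markers was at 0 over all libraries, *Ctss* was the most abundant with 817 reads, and 10 of 10 had a fitted fold change below 0 in *Fezf2+ve*, with a median log2 fold change of -5.28. The 5 markers of oligodendrocyte precursors (OPCs) had 11 to 283 reads per library, led by *Pdgfra* with 740 reads, and levels of 9.39 ± 1.61 and 8.98 ± 1.24 in *Fezf2+ve* and *Fezf2−ve*, which overlapped. The fitted fold change was above 0 in 4 of these 5, with a median log2 fold change of 1.39. The 5 oligodendrocyte markers *Mbp*, *Mog*, *Mag*, *Mobp* and *Cnp* together had 81, 408, 40, 12 and 56 reads in *Fezf2+ve* and 139, 27, 25, 17 and 21 in *Fezf2−ve*, led by *Mbp* with 557 over all libraries. The *Fezf2+ve* library of animal 2 stood above the rest, and the summed levels, 8.89 ± 1.60 and 7.64 ± 1.10, overlapped. The sum was higher in *Fezf2+ve* in 4 of 5 animals (paired difference 1.25, SD 1.44). *Mbp* was higher in *Fezf2+ve* in 5 animals, *Mobp* in 4, and *Mog*, *Mag* and *Cnp* in 2 each. The 6 astrocyte markers had 7 to 240 reads per library, with *Gfap* at 0, at 8.66 ± 1.58 and 6.36 ± 1.22, and 238 of the 271 reads of *Slc1a3* came from the *Fezf2+ve* library of animal 4. Their sum was higher in *Fezf2+ve* in 4 of 5 animals (paired difference 2.30, SD 1.92), and *Aldoc* had 24, 31, 28, 1 and 25 reads in *Fezf2+ve* and 40, 3, 4, 3 and 4 in *Fezf2−ve*. The 5 endothelial markers had 0 to 9 reads per library, led by *Flt1* with 26. The 7 interneuron markers had 0 to 4 reads per library, led by *Gad2* with 6, and *Slc32a1*, *Pvalb*, *Vip* and *Lhx6* were at 0. Their summed level was 0.57 ± 1.27 in *Fezf2+ve* against 3.17 ± 1.93 in *Fezf2−ve*, higher in *Fezf2−ve* in 4 of 5 animals and in *Fezf2+ve* in 0. Each library pooled the cells of a sorted fraction, so fewer cells of a type and less RNA per cell cannot be told apart.

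**Figure D1:**
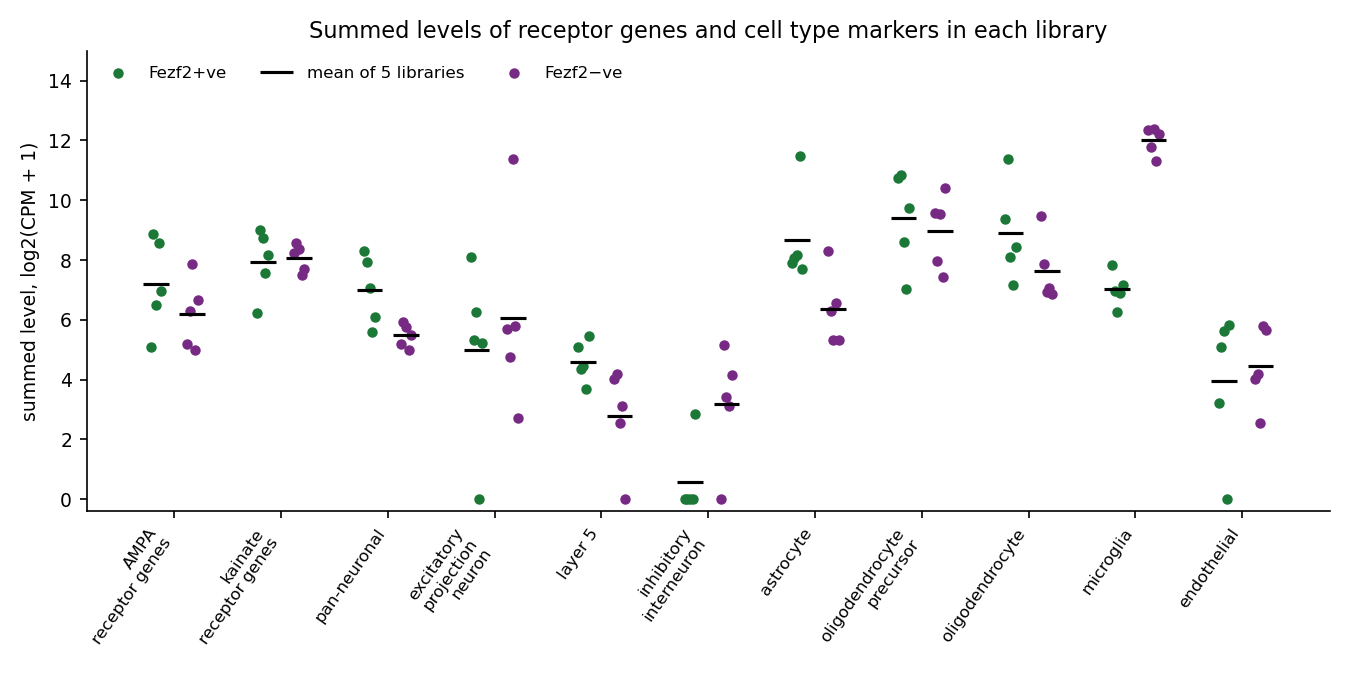
Summed level, log2(CPM + 1), of the receptor genes and of each marker list in each library, with *Fezf2+ve* in green, *Fezf2−ve* in purple and black bars for the mean of 5 libraries. The types overlap for both receptor families and separate for the microglia markers, at 7.02 ± 0.57 and 12.01 ± 0.46 (SD).

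Taken as families, the receptor genes were detected in every library and overlapped between the types. The 4 AMPA receptor genes together had 4, 71, 13, 32 and 20 reads in *Fezf2+ve* animals 1 to 5 and 7, 9, 48, 4 and 18 in *Fezf2−ve*, which gave summed levels of 7.19 ± 1.55 (SD, n = 5) and 6.20 ± 1.17. The 5 kainate receptor genes together had 9, 78, 61, 16 and 47 reads in *Fezf2+ve* and 59, 44, 68, 23 and 37 in *Fezf2−ve*, which gave 7.94 ± 1.10 and 8.07 ± 0.46. The mean paired difference, *Fezf2+ve* minus *Fezf2−ve*, was 0.99 (SD 2.02) for the AMPA sum and -0.13 (SD 1.06) for the kainate sum, each smaller than its spread over animals. With 1 animal left out, the mean of the AMPA sum ran from 0.34, without animal 4, to 1.58, without animal 3. The kainate sum was nonetheless higher in *Fezf2+ve* in 4 of 5 animals, and its negative mean rests on animal 1, at 6.22 in *Fezf2+ve* and 8.23 in *Fezf2−ve*, without which the mean was 0.34.

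A single library held much of the signal of several members. More than 50% of a member's reads came from 1 library in 4 of the 9 members, namely *Gria2*, *Gria3*, *Grik4* and *Grik5*. The library that held them differed from gene to gene. Of 47 other genes of the receptor pathway, described below, 21 also had more than 50% of their reads in a single library. The share over all counted genes was not computed, so this is not shown to be particular to the members.

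The members share the stretch around one codon of the pore loop, where the GRIA2 RNA is edited from glutamine to arginine, and this stretch is shown for the genes on which the results turn because it is the best known functional difference between the subunits. Sequences are from GENCODE vM21 on GRCm38, written 5′ to 3′ on the coding strand, with the unedited glutamine codon in capitals. That of *Gria2* is at chr3:80706907-80706933 on the minus strand in exon 11 of 16, and that of *Gria4* at chr9:4464133-4464159 on the minus strand in exon 12 of 17. That of *Grik2* is at chr10:49244325-49244351 on the minus strand in exon 12 of 16, and that of *Grik3* at chr4:125691187-125691213 on the plus strand in exon 12 of 16. All 4 lie in coding exon sequence.
Gria2: tttccttgggtgcctttatgCAGcaag
Gria4: tttccctgggtgcctttatgCAAcaag
Grik2: ttggagttggagctctcatgCAGcaag
Grik3: ttggaatgggctccctgatgCAGcaag
Over these 27 bases the AMPA genes were identical to each other at 21 to 26 positions in 6 pairs, the kainate genes at 16 to 26 positions in 10 pairs, and genes of different families at 17 to 21 positions in 20 pairs. The codon was CAG in every member except *Gria4*, in which it was CAA. In the AMPA genes 23 bases of the exon followed the codon, against 4 in *Grik1*, *Grik2* and *Grik3* and 56 in *Grik4* and *Grik5*. Gene counts do not show whether the RNA was edited. For each member, only the transcript with the longest coding sequence was compared with those of the others. The longest run of bases that any pair of these transcripts shared exactly was 41, between *Gria2* and *Gria4*. A run as long as the shortest read kept, 50 bases, was shared by 0 of the 36 pairs. Other transcripts of the members and reads mapped with mismatches were not examined.

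*Gria2* (chr3:80681450-80802835, minus strand), the subunit that limits calcium entry, had 1, 64, 7, 0 and 13 reads in *Fezf2+ve* animals 1 to 5. In *Fezf2−ve* its reads were 5, 0, 3, 1 and 6. The *Fezf2+ve* library of animal 2 stood high and held 64.0% of all 100 reads, while the other libraries of the types overlapped. That library also had the most reads of the oligodendrocyte markers, 408, and of the OPC markers, 283, besides 30 of the 72 reads of *Syt1* and 54 reads of *Grik2*. The part of RNA of these cell types in its values was not tested. The level was 4.77 ± 3.31 (SD, n = 5) in *Fezf2+ve* against 3.38 ± 2.04 in *Fezf2−ve* IT-PNs, higher in *Fezf2+ve* in 3 of 5 animals (paired difference 1.39, SD 4.54, exact permutation test, two-sided p = 0.688).

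*Gria1* (chr11:57011387-57330244, plus strand), the subunit whose trafficking changes with synaptic plasticity, had 11 reads in all. Its reads were 0, 0, 1, 1 and 2 in *Fezf2+ve* and 0, 0, 5, 0 and 2 in *Fezf2−ve* libraries. It stayed at or under 3 reads in every library but the *Fezf2−ve* library of animal 3. It did not pass the filter, which asked for 10 CPM or more in 2 or more libraries. With this filter it was not tested for a fold change. The levels, 2.08 ± 1.92 and 1.65 ± 2.29, overlapped (exact permutation test, two-sided p = 0.75).

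*Gria3* (chrX:41400854-41678601, plus strand), which pairs with GRIA2 in cortical receptors, had 0, 4, 0, 28 and 2 reads in *Fezf2+ve* and 2, 1, 2, 0 and 0 in *Fezf2−ve* libraries. The *Fezf2+ve* library of animal 4 alone stood high, with 71.8% of the reads, and both types held libraries at 0. Its level was 3.37 ± 3.53 in *Fezf2+ve* against 2.03 ± 1.86 in *Fezf2−ve* IT-PNs.

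*Gria4* (chr9:4417896-4796234, minus strand), a subunit with fast kinetics, had 3, 3, 5, 3 and 3 reads in *Fezf2+ve* and 0, 8, 38, 3 and 10 in *Fezf2−ve* libraries. The *Fezf2+ve* values lay close together, and the *Fezf2−ve* values ran from below to above them, with 38 of all 76 reads in the library of animal 3. The mean levels, 4.73 ± 0.43 and 4.82 ± 2.89, differed by less than either SD.

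*Grik2* (chr10:49094833-49788766, minus strand), which can form kainate channels alone, had 1, 54, 58, 6 and 6 reads in *Fezf2+ve* and 5, 15, 12, 4 and 13 in *Fezf2−ve* libraries. It had at least 1 read in every library. The *Fezf2+ve* libraries of animals 2 and 3 were the highest of the 10, and the other *Fezf2+ve* libraries lay within or below the *Fezf2−ve* range. The level was 6.34 ± 2.29 in *Fezf2+ve* against 5.77 ± 0.93 in *Fezf2−ve* IT-PNs (paired difference 0.58, SD 1.77).

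*Grik1* (chr16:87895900-88290265, minus strand), best known from interneurons, had 2, 6, 1, 6 and 4 reads in *Fezf2+ve* and 1, 0, 1, 1 and 5 in *Fezf2−ve* libraries. It was higher in *Fezf2+ve* in 4 of 5 animals, but the ranges overlapped and no library held more than 6 reads. Levels were 4.65 ± 1.20 and 2.63 ± 1.74 (paired difference 2.03, SD 2.21, exact permutation test, two-sided p = 0.125). The paired difference was 1.20 without animal 2 and 1.07 with levels as log2(CPM + 10).

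*Grik3* (chr4:125490700-125714173, plus strand), a subunit that forms channels of low glutamate sensitivity, had 1, 15, 2, 1 and 11 reads in *Fezf2+ve* animals 1 to 5. It had 50, 24, 49, 15 and 18 reads in *Fezf2−ve*. *Fezf2−ve* was higher in 5 of 5 animals. The highest *Fezf2+ve* level, 6.63, lay just below the lowest *Fezf2−ve* level, 6.66. Scaled by library size only, an alternative chosen after seeing the data, the types overlapped, with *Fezf2+ve* up to 139 CPM and *Fezf2−ve* from 71.0 CPM. The level was 4.70 ± 1.55 (SD, n = 5) in *Fezf2+ve* against 7.42 ± 0.62 in *Fezf2−ve* IT-PNs, and the paired difference was -2.73 (SD 1.84, exact permutation test, two-sided p = 0.063). With 5 animals, 0.063 is the smallest p this test can give.

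*Grik4* (chr9:42518135-42944493, minus strand), a subunit with high affinity for kainate, had 5, 2, 0, 3 and 26 reads in *Fezf2+ve* and 3, 5, 0, 3 and 1 in *Fezf2−ve* libraries. The *Fezf2+ve* library of animal 5 stood high with 54.2% of the reads, and the other libraries overlapped. *Grik5* (chr7:25009849-25072346, minus strand), the other partner subunit, had 7 reads in all, 1 in the *Fezf2+ve* library of animal 2 and 6 in the *Fezf2−ve* library of animal 3. It was at 0 in the other libraries, did not pass the filter and, with this filter, was not tested for a fold change. Levels of *Grik4* were 4.34 ± 2.73 and 3.36 ± 2.13, and those of *Grik5* 0.58 ± 1.30 and 0.98 ± 2.20, in *Fezf2+ve* and *Fezf2−ve*.

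**Figure D2:**
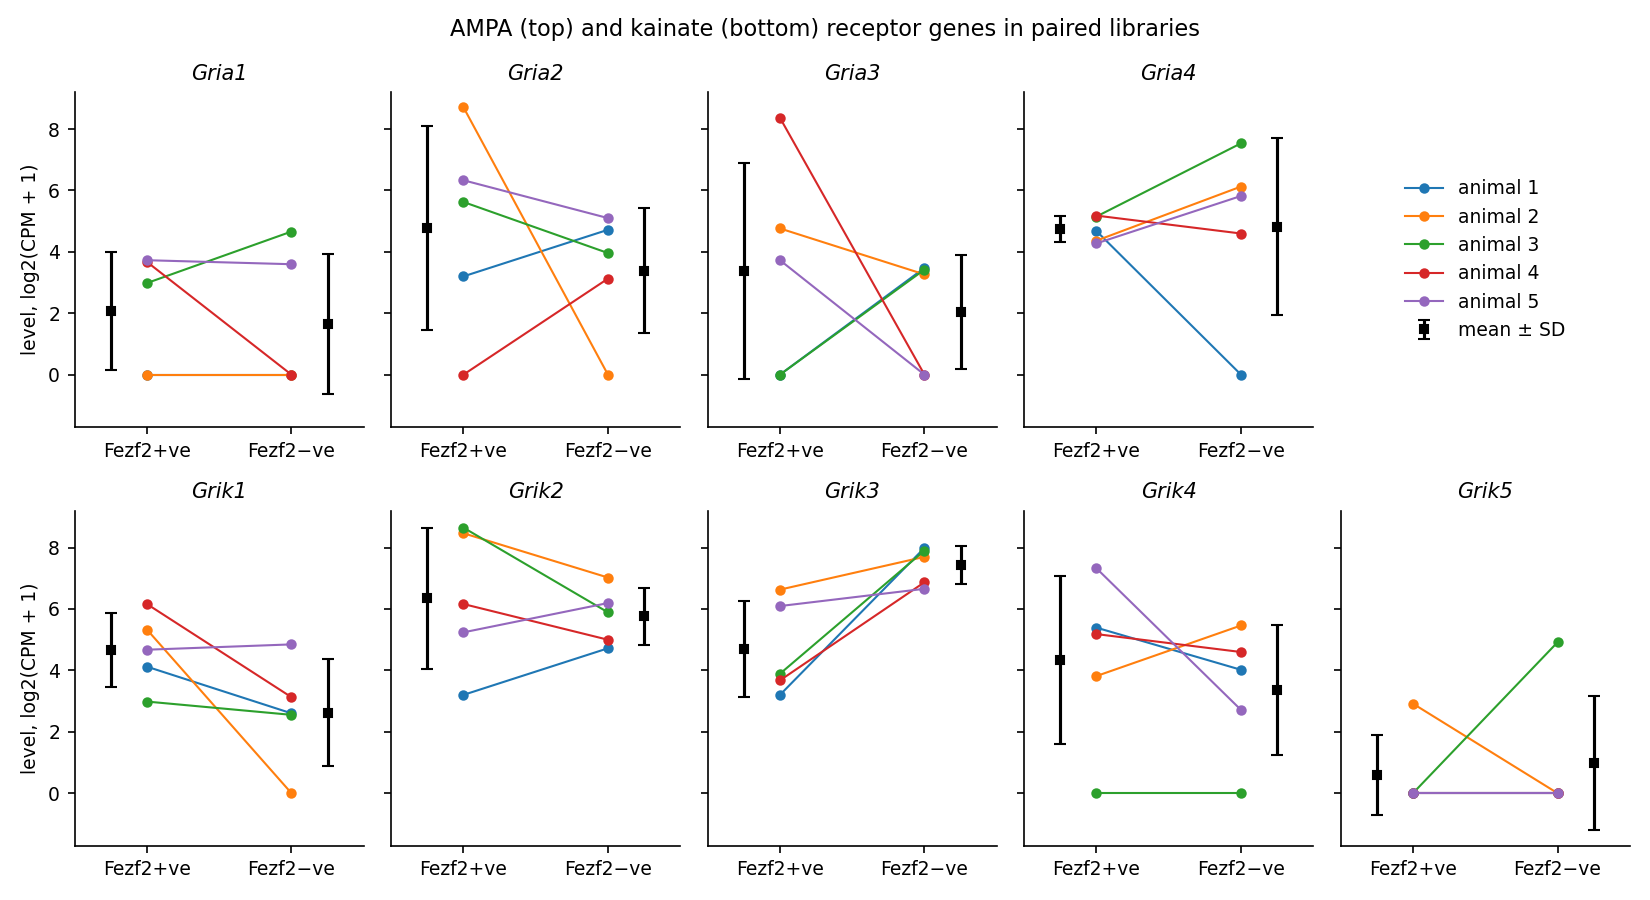
Level, log2(CPM + 1), of each AMPA (top) and kainate (bottom) receptor gene in *Fezf2+ve* and *Fezf2−ve* libraries, with 1 line for each animal and black squares for the mean ± SD of 5 libraries. *Grik3* lies lower in *Fezf2+ve* in 5 of 5 animals, and in each other member the animals differ in direction.

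Levels of different genes were compared as CPM per kilobase of gene span, introns included, and an order by transcript length was not computed. These libraries were primed with oligo-dT and biased to the 3′ ends of RNA, so that reads need not scale with span, and which member comes first in *Fezf2+ve* depends on the division by span. In *Fezf2+ve* libraries the order from the highest was *Gria2*, *Gria3*, *Grik2*, *Grik3*, *Grik4*, *Grik1*, *Gria4*, *Grik5* and *Gria1*. *Gria2* was at 0.914 ± 1.44 (SD, n = 5) CPM per kilobase and *Gria3* at 0.265 ± 0.517, and without the highest library of each they were at 0.281 and 0.0346, so that both means rest largely on 1 library. In *Fezf2−ve* libraries the order was *Grik3*, *Gria4*, *Gria2*, *Grik5*, *Grik2*, *Grik4*, *Grik1*, *Gria1* and *Gria3*, with *Grik3* at 0.818 ± 0.316 CPM per kilobase and *Gria4* at 0.176 ± 0.189. Without the highest library of each, *Grik3* was at 0.740, *Gria2* at 0.0982, *Gria4* at 0.0976 and *Grik5* at 0. Within each type, neighbours in the order differed by less than the larger of their SDs, apart from *Grik3* and *Gria4* in *Fezf2−ve* and from *Gria4*, at 0.0700 ± 0.0213, and *Grik5*, at 0.0209 ± 0.0468, in *Fezf2+ve*.

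In the fit over all genes with the animal as a block, fold changes are *Fezf2+ve* over *Fezf2−ve*, and a gene was called at a Benjamini-Hochberg adjusted p at or below 0.1. Of the 9 members, 7 passed the filter on low counts. The quasi-likelihood test of edgeR called 0 of the 7, and it called 0 of the 7409 genes tested (0%). With a biological coefficient of variation of 1.19 between libraries, a count of 0 does not show that levels were alike. The smallest Benjamini-Hochberg adjusted p from edgeR was 0.998 among the members and 0.993 among all genes. At an unadjusted p under 0.05 there was 1 member, *Grik3*, beside 288 of the 7409 genes (3.89%). With edgeR's legacy quasi-likelihood method, added after seeing the data, 0 members had an unadjusted p under 0.05, beside 294 genes (3.97%). Without the animal block edgeR called 0 members and 279 genes (3.77%). DESeq2 with the block called 0 of the 3 members it gave an adjusted p, and 98 of 1664 genes (5.89%). At an unadjusted p under 0.05 there was 1 member, *Gria3*, beside 1345 genes (18.2%) without the block, where *Grik3* was at 0.0509, and 1 member, *Grik3*, beside 302 genes (4.08%) with DESeq2. Levels that did not overlap between the types were found for 1 of the 7 members and 108 of the 7409 genes (1.46%) with TMM, or 0 members and 77 genes (1.04%) when scaled by library size only. There was a difference of one direction in all 5 animals for 1 member and 304 genes (4.1%).

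The SE beside an edgeR fold change was computed as the absolute log2 fold change over the square root of the test's F. It therefore restates the unadjusted test and is no separate measure of spread, whereas the SE of DESeq2 comes from its model. The log2 fold change of *Grik3* was -2.61 (SE 1.17), with a Benjamini-Hochberg adjusted p of 0.998 by edgeR. Its unadjusted p was 0.0827 with edgeR's legacy quasi-likelihood method and 0.0378 with the bias-adjusted method used for the other values, and the choice between both methods was settled after these values had been seen. DESeq2 gave *Grik3* a log2 fold change of -2.75 (SE 1.11) and a Benjamini-Hochberg adjusted p of 0.152. In the other 6 tested members, the log2 fold change was 1.25 (SE 1.61) for *Gria2*, 1.38 (SE 2.00) for *Gria3*, -0.65 (SE 1.38) for *Gria4*, 1.69 (SE 1.25) for *Grik1*, 0.70 (SE 1.15) for *Grik2* and 1.10 (SE 1.40) for *Grik4*. In 5 of the 7 the fold change was smaller than its standard error, and in the blocked fit the unadjusted p of each of these 6 was above 0.05. Without the block the log2 fold change was 2.70 for *Gria2*, 3.47 for *Gria3*, -1.31 for *Gria4* and 1.45 for *Grik2*, over 1.5 times the blocked values. *Gria3* had an unadjusted p of 0.0449 without the block, where its adjusted p by edgeR with Benjamini-Hochberg adjustment was 0.262, and its fold change turned to -0.02 when animal 4 was left out. Fold changes were above 0 in 5 and below 0 in 2 of the 7 members, with a median of 1.10, beside 3388 above and 4021 below 0 and a median of -0.16 over all 7409 genes. The members' median was 0.39 without animal 2, 0.50 without animal 4 and 0.73 without animal 5. With no filter on low counts it was 0.66, but over 9 members, since *Gria1* and *Grik5* were then fitted too. The median over all genes was -0.31 without animal 2 and -0.29 without animal 5. With 1 animal left out, the lowest log2 fold change was 0.14 for *Gria2*, 0.084 for *Grik2* and 0.0095 for *Grik4*, and that of *Gria4* ran from -1.40 to -0.096.

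**Figure D3:**
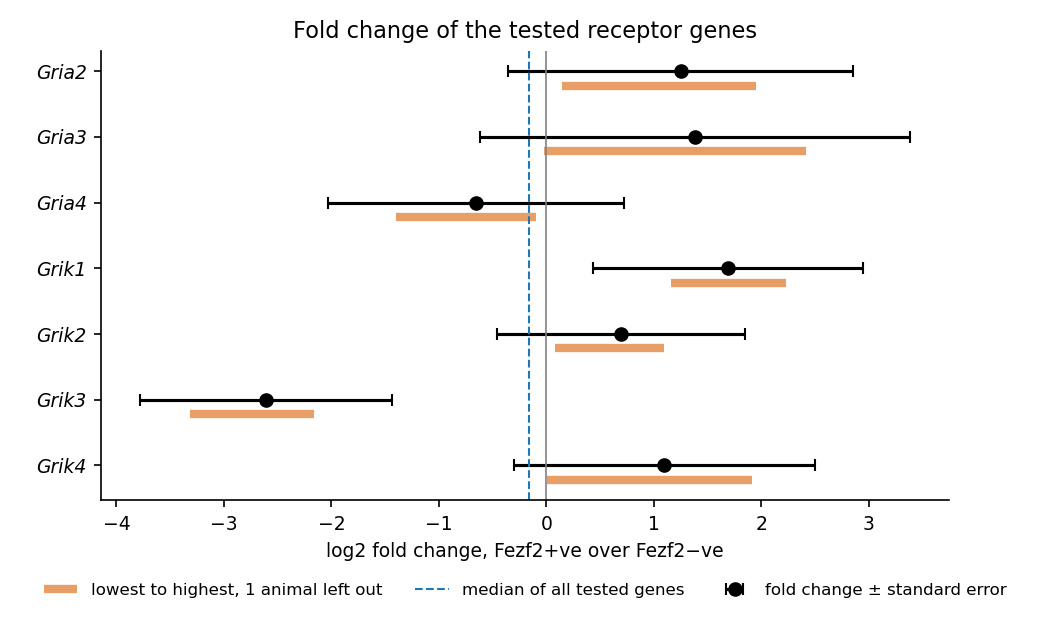
Log2 fold change, *Fezf2+ve* over *Fezf2−ve*, of the 7 tested receptor genes with the standard error (black) and the lowest to highest value with 1 animal left out (orange). The standard error is derived from the fold change and the F of the edgeR test. *Grik3* lies at -2.61 and stays between -3.32 and -2.16, and the dashed line marks the median of all tested genes, -0.16.

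Sequences annotated inside the members bear on which reads the counts hold. The annotation places 1 other gene inside *Gria2*, *Gria3* and *Gria4* each, 6 inside *Grik2* and 2 inside *Grik4*, none of them among the names of the count table. Within *Grik3*, between exons 1 and 2 of 16 and 13343 bases after exon 1, lies *Ftl2-ps* (chr4:125504288-125504839, plus strand), a processed pseudogene of the ferritin light chain gene *Ftl1*, also not in the table. Of its 552 bases, 545 (98.7%) were identical to the *Ftl1* transcript, and 273 of its 503 windows of 50 bases occurred in that transcript without a difference. The microRNA gene *Mir692-2* (chr4:125504749-125504857, plus strand) overlaps the last 91 bases of *Ftl2-ps*, was in the table and had 0 reads in all 10 libraries. No read was thus counted on *Mir692-2* at that end of the pseudogene, and reads on the rest of *Ftl2-ps* were not measured. Likeness of the sequences inside the other members to genes elsewhere was not tested. Whether the counts take in introns was examined with genes that lie inside an intron of a host gene. In 16 of 17 such pairs the host had at least as many reads as the inner gene in all 10 libraries. This held in 13 of 13 pairs on opposite strands and 3 of 4 on the same strand. A host can also meet this criterion with reads on its own exons, so the check cannot decide whether introns were counted. In the pair that did not meet this, *Spag6l* had 0 reads and the processed pseudogene inside it on the same strand, *Rpl31-ps12*, had 22. These pairs had hosts with matching spans in both annotations, a restriction chosen after the count over all 68 pairs, 33 of which met the criterion, had been seen.

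*Ftl1*, which encodes the light chain of the iron store ferritin, was among the 3 genes with the pattern most like that of *Grik3* over these 10 libraries. Its likeness to *Grik3* is therefore what chose it and supports nothing about *Grik3*, and its relation to *Ftl2-ps* was noticed after these values had been seen. *Ftl1* had 2, 6, 5, 2 and 7 reads in *Fezf2+ve* and 41, 47, 45, 20 and 11 reads in *Fezf2−ve* animals 1 to 5, at levels of 4.94 ± 0.56 and 7.48 ± 0.99 (SD, n = 5). The microglia markers were lower in *Fezf2+ve* in 5 of 5 animals, with a paired difference of -4.98 (SD 0.68) in their summed level, whereas the summed OPC level was higher in *Fezf2+ve* in 2 animals and in *Fezf2−ve* in 3. The part of microglial RNA in the difference of *Grik3* was not tested.

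**Figure D4:**
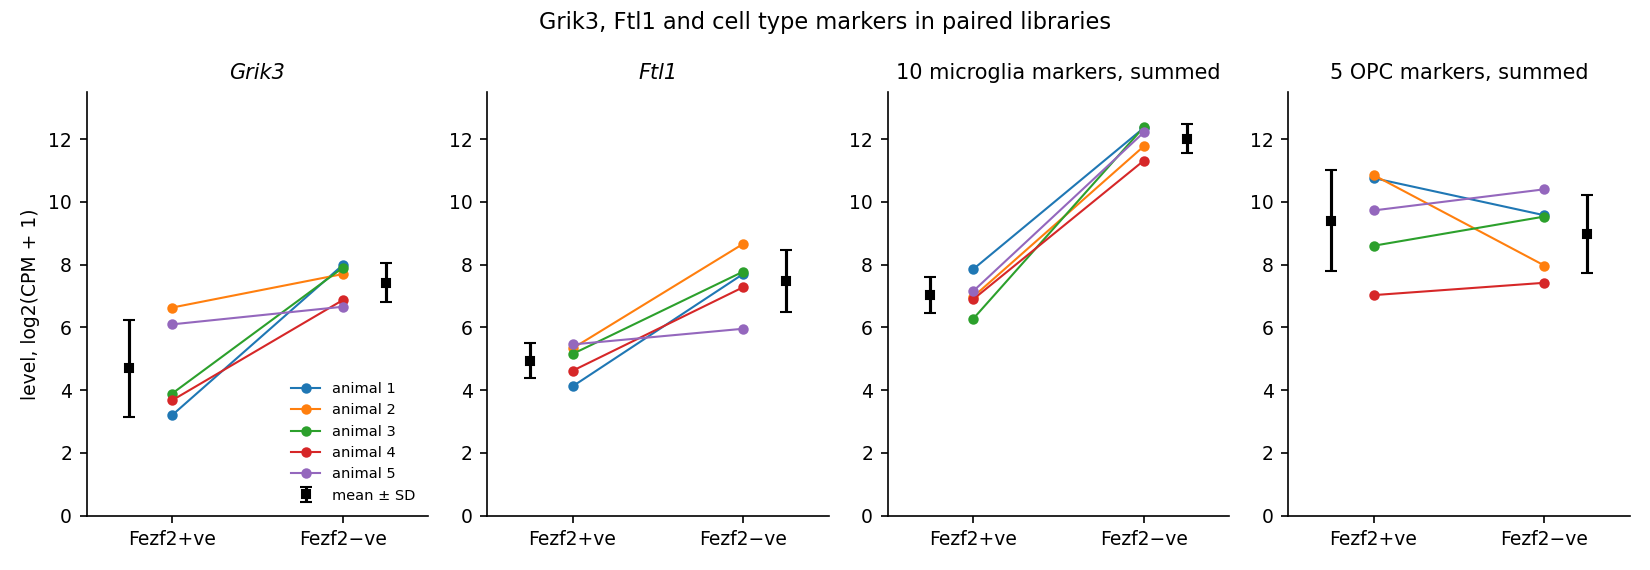
Level, log2(CPM + 1), of *Grik3*, of *Ftl1* and of the summed microglia and OPC markers in paired libraries, with 1 line for each animal and black squares for the mean ± SD of 5 libraries. *Grik3*, *Ftl1*, which was chosen for its likeness to *Grik3*, and the microglia markers are lower in *Fezf2+ve* in 5 of 5 animals, and the OPC markers are not.

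Similarity of pattern was measured as the root-mean-square difference of centred levels over 10 libraries, among 2869 genes that reached 10 CPM in 5 or more libraries. For *Grik3*, the kainate gene with the most reads, the closest genes were *Rps9* at 0.810, *Ftl1* at 0.831 and *Cflar* at 0.926, and the median over all genes was 2.56. *Cflar* lay near the floor, with 0, 1, 0, 0 and 1 reads in *Fezf2+ve* and 2, 1, 3, 3 and 7 in *Fezf2−ve*, so its likeness rests on few reads. For *Gria2*, the AMPA gene with the most reads, they were *Rnf41* at 1.04, *Ktn1* at 1.19 and *Uevld* at 1.31, with a median of 3.06. *Rnf41* was, like *Gria2*, highest in the *Fezf2+ve* library of animal 2, with 49 reads, and *Gria2* and its 3 neighbours were all at 0 in the *Fezf2+ve* library of animal 4 and the *Fezf2−ve* library of animal 2.

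A list of 47 other genes of the receptor pathway held auxiliary subunits, genes of receptor biogenesis, anchoring and trafficking, extracellular organizers and RNA editing enzymes. Of these, 4 had no read in any library, 28 had fewer than 10 reads in all, and 22 passed the filter and were tested. The fitted fold change was above 0 in 15 and below 0 in 7, with a median log2 fold change of 0.58. Over the 21 with reads in both types the median was 0.73, beside -0.10 over the 6995 tested genes with reads in both. The quasi-likelihood test of edgeR called 0 of the 22, 1 had an unadjusted p under 0.05, and 0 did with the legacy method. DESeq2 called 1 of the 9 it gave an adjusted p, beside 98 of 1664 genes (5.89%). Without the block edgeR called 0 of the 22, and 5 had an unadjusted p under 0.05, beside 279 genes called (3.77%) and 1345 under 0.05 (18.2%) of all 7409. More than 50% of the reads came from a single library in 21 of the 47 genes.

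The gene that DESeq2 called was *Akap5*, a scaffold that holds kinases and a phosphatase near AMPA receptors. It had 269, 165, 384, 91 and 237 reads in *Fezf2+ve* and 55, 34, 109, 21 and 8 reads in *Fezf2−ve* animals 1 to 5. Every *Fezf2+ve* level lay above every *Fezf2−ve* level with TMM, at 10.63 ± 0.60 against 7.65 ± 1.34 (SD, n = 5). With the library size only, *Fezf2+ve* went down to 600 CPM and *Fezf2−ve* up to 646 CPM, so the types overlapped. The log2 fold change was 2.92 (SE 1.13), with a Benjamini-Hochberg adjusted p of 0.998 by edgeR and 0.0581 by DESeq2. Its unadjusted p by edgeR was 0.0838 with the legacy method and 0.0190 with the bias-adjusted method, and without the block its adjusted p by edgeR with Benjamini-Hochberg adjustment was 0.201.

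Of the genes of anchoring and trafficking, *Akap5* included, 6 were tested and 4 had a fold change above 0. *Nsf*, an ATPase that binds GRIA2, had 3, 3, 5, 1 and 69 reads in *Fezf2+ve* and 0, 1, 2, 4 and 9 in *Fezf2−ve* libraries, with a log2 fold change of 1.78 (SE 1.27). *Epb41l1*, which links GRIA1 to the actin skeleton, had at most 4 reads in a library and a log2 fold change of 2.24 (SE 1.59). *Nedd4*, a ubiquitin ligase of GRIA1, had a log2 fold change of -1.05 (SE 1.29). It ran from -1.92 to -0.54 with 1 animal left out and turned to 0.85 without the block. In *Nedd4* 53.1% of the reads lay in the *Fezf2+ve* library of animal 3. The fold changes of *Nsf*, *Epb41l1* and *Nedd4* in the blocked fit were within 2 standard errors of 0.

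The auxiliary subunits, which set gating and surface delivery, were mostly near the floor. The most reads, 644, were those of *Shisa6*, of which 449 lay in the *Fezf2−ve* library of animal 3. Of 14 AMPA auxiliary subunits 6 were tested, 3 with a fold change above and 3 below 0. *Cacng3* had 27 of its 30 reads in the *Fezf2+ve* library of animal 1. *Cacng5* was at 0 in every *Fezf2+ve* library and had 6, 0, 2, 1 and 0 reads in *Fezf2−ve*, too few for a fold change to be given. *Cacng7* had a log2 fold change of -0.54 (SE 1.41) and *Shisa9* one of 1.01 (SE 1.31), which ran from 0.58 to 1.73 with 1 animal left out. Of the kainate auxiliary subunits, *Neto1* had 1, 0, 0, 402 and 1 reads in *Fezf2+ve* and 2, 2, 0, 22 and 0 in *Fezf2−ve* libraries. Animal 4 thus stood high in both types, and its *Fezf2+ve* library held 93.5% of the reads of *Neto1*. *Neto2* had 68 of its 72 reads in the *Fezf2−ve* library of animal 1 and was not tested.

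Of 12 extracellular organizers, proteins that gather receptors at synapses, 5 were tested and 4 had a fold change above 0. *Lrrtm4*, an adhesion protein of excitatory synapses, had 183, 6, 12, 25 and 29 reads in *Fezf2+ve* and 9, 7, 11, 7 and 19 in *Fezf2−ve* libraries, with a log2 fold change of 1.52 (SE 1.20), 0.75 without animal 1 and 2.70 without the block. *Lrrtm3* had a log2 fold change of 1.91 (SE 1.79) that ran from 0.66 without animal 3 to 3.07 without animal 1. It lies within *Ctnna3* on the opposite strand, and the use of strand in counting is not given, so its count is uncertain. *Olfm3*, a secreted protein found in AMPA receptor complexes, had one of 0.83 (SE 1.98). *Nptxr*, the neuronal pentraxin receptor, had 5 reads in all and overlaps *Npcd* on the same strand.

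In receptor biogenesis 2 of 5 genes were tested. *Cpt1c*, which binds AMPA receptors in the endoplasmic reticulum, had a log2 fold change of 0.20 (SE 1.27), and *Sacm1l*, a lipid phosphatase there, one of 0.40 (SE 2.30). *Abhd6*, a hydrolase that limits surface delivery of AMPA receptors, had 1, 2, 1, 1 and 2 reads in *Fezf2−ve* and 0 in all 5 *Fezf2+ve* libraries. Since a count of 0 allows up to 3 reads, these counts do not show that the levels lay apart. *Abhd6* did not pass the filter and, with this filter, was not tested. Of 3 RNA editing enzymes 2 were tested. *Adarb1*, the enzyme that edits the *Gria2* codon shown above, had 3, 27, 529, 1 and 50 reads in *Fezf2+ve* and 102, 0, 5, 3 and 73 in *Fezf2−ve* libraries. Both types held high and low libraries, and the log2 fold change of 1.00 (SE 2.14) was smaller than its standard error. *Adarb2*, a relative without known editing activity, had 359 and 1144 reads in the *Fezf2+ve* and *Fezf2−ve* libraries of animal 5 and at most 40 in any other library, with a log2 fold change of -0.83 (SE 1.08), -0.46 without animal 1 and -1.46 without the block.

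**Figure D5:**
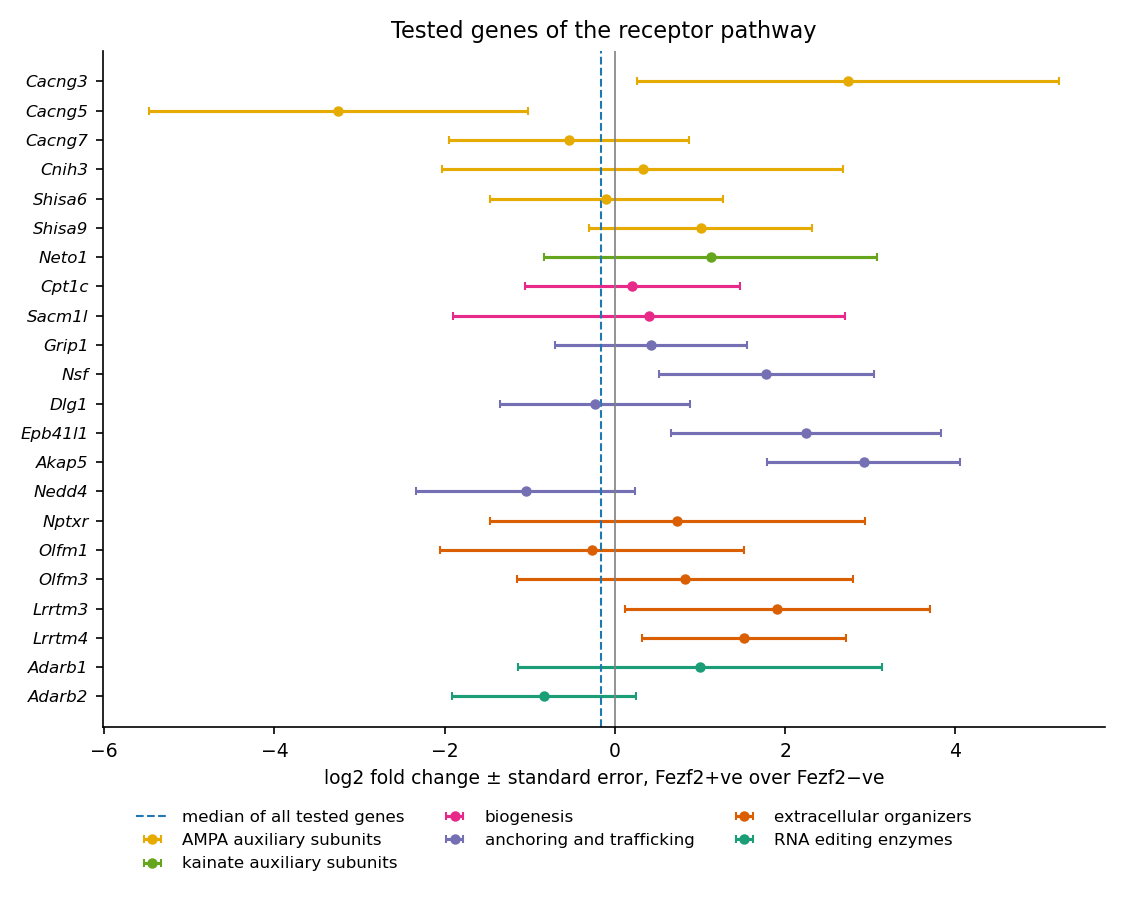
Log2 fold change ± standard error, *Fezf2+ve* over *Fezf2−ve*, of the 22 tested pathway genes, coloured by group, with the median of all tested genes dashed. The standard error is derived from the fold change and the F of the edgeR test. *Akap5* lies at 2.92 (SE 1.13), and the fitted value of *Cacng5*, which was at 0 in every *Fezf2+ve* library, rests on the added prior count.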

How the data were processed

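Read counts of 10 RNA-seq libraries were used, 5 of each IT-PN type. The authors mapped reads of at least 50 bases to mm10 with TopHat2 2.1.1, used multiCov of bedtools 2.26.0 to count them on the genes of RefFlat and deposited the counts without normalization. The use of strand and of exons or whole gene spans in counting is not given in the sources used here. The authors also deposited a DESeq2 comparison with mean counts as a score, log2 fold changes with standard errors, a test score and p-values, which was not used. The members and lists were chosen with earlier results of these data known.

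A gene was tested if it reached 10 CPM in 2 or more libraries, which left 7409 of 24453. The test was edgeR's (version 4.0.16, R 4.3.3) quasi-likelihood F-test on TMM-scaled counts, and the model held the animal as a block beside the IT-PN type. Benjamini-Hochberg adjustment ran over all tested genes, with calls at or below 0.1, the threshold of the study's methods. Several quasi-likelihood settings had been tried, and the bias-adjusted method was settled after the members' p-values had been seen. It moved the p of *Grik3* from 0.0827 to 0.0378, whereas its adjusted p was above 0.1 under every setting. Levels were compared with a two-sided exact permutation test over all sign flips of the paired differences (numpy 2.4.6). The common biological coefficient of variation was 1.19. The fits were tested on simulated counts. Changed genes were recovered where they were abundant and the spread small, after a first draw over all genes had recovered fewer than required. At a larger spread, somewhat below that of these libraries, the blocked edgeR test recovered none of the changed genes. Its lack of calls therefore does not show that levels were alike. The simulated counts held changes of a fixed size and no effect of the animal. The other fits were run on the same counts, and what they recovered is not given here.

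Pairing comes from the labels, by which both fractions were sorted from one animal. Deviations from the type means had a mean correlation across genes of 0.029 for libraries of the same animal (5 pairs, -0.027 to 0.097) and of -0.007 for different animals (20 pairs).

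Named genes were the 9 members, in each pathway group up to 4 tested genes with the smallest unadjusted p and every gene called, the 3 genes of most similar pattern to the Gria and the Grik member with the most reads, and the most abundant and defining markers of each cell type list. The result of 1 marker is not reported here, and sums leave it out. *Shisa6*, *Neto2*, *Abhd6*, *Ftl2-ps* and *Mir692-2* were singled out after values had been seen. Positions are those of GENCODE vM21 on GRCm38, which is mm10, counted from 1. In the check of intron counting, inner genes had at least 20 reads. Over all 68 pairs the host had at least as many reads in every library in 11 of 34 on the same strand and 22 of 34 on opposite strands. After this had been seen, the check was restricted to protein-coding hosts whose GENCODE and RefSeq spans differed by at most 1000 bases, without microRNA genes, which gave 16 of 17.

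Libraries held 89138 to 217738 reads on genes. Alternatives were a fit without the block, DESeq2 1.42.0 with the block, RLE factors, library size only, no filter, a filter of 10 CPM in 5 libraries, a threshold of 0.05, other scales for the levels and leaving out each animal. The legacy quasi-likelihood method was chosen after seeing the data.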

Additional observations from a re-analysis of the deposited data

Results flagged for a closer look

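Within the 5 libraries of a type, a value was examined again where its gap to the nearest library took up most of the range of the group. Among 40 groups this picked out 4 values, and chance picks out about 1 in 20 groups. Where all other libraries are at 0, the gap is 1 of the range by construction, so this rate does not apply to such groups. The level of *Grik5* in the *Fezf2+ve* library of animal 2 was 2.91 from 1 read, with the other libraries of the type at 0, so the gap was 1 of the range. Its level in the *Fezf2−ve* library of animal 3 was 4.91 from 6 reads, again with the others at 0 and a gap of 1. The summed interneuron level was 2.83 in the *Fezf2+ve* library of animal 5, from 1 read, with the others at 0 and a gap of 1. The summed astrocyte level was 11.46 in the *Fezf2+ve* library of animal 4, against 7.71 to 8.15 in the others, a gap of 0.882 of the range, and *Slc1a3* gave 238 of its 240 reads. The causes were not tested.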

How the results depend on the processing

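The number of genes called was 0 in edgeR with the animal block, 279 without the block and 98 with DESeq2, and 0 under the other settings. Members called stayed at 0 under all settings, and DESeq2 called 1 pathway gene. The smallest Benjamini-Hochberg adjusted p of a member in any setting was 0.152, for *Grik3* by DESeq2.

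The log2 fold change of *Grik3* stayed between -3.32 and -2.16 over 12 alternatives, with an unadjusted p of 0.0121 to 0.105 that was under 0.05 in 6 of them. Without the replicate block it was -2.16. With the legacy quasi-likelihood method, chosen after seeing the data, it was -2.63 with an unadjusted p of 0.0827. Of 84 fold changes of members under alternatives, 1 had the other sign, that of *Gria3*, which ran from -0.024 to 2.42 with 1 animal left out. Of 192 fold changes of named pathway genes, 12 had the other sign. With 1 animal left out, they ran from -1.21 to 0.014 for *Cacng7*, from -0.56 to 2.42 for *Neto1*, from -1.25 to 1.88 for *Sacm1l*, from -0.22 to 0.61 for *Cpt1c*, from -0.39 to 2.48 for *Olfm3* and from -0.46 to 2.76 for *Adarb1*. Without the pairing by animal, the fold change was 0.85 for *Nedd4*, -0.54 for *Olfm3*, 4.57 for *Neto1* and 4.37 for *Cacng3*. Paired differences of the level changed sign in 7 of 63 alternatives. With 1 animal left out they ran from -0.39 to 0.95 for *Gria1*, from -0.44 to 2.52 for *Gria2*, from -0.42 to 2.54 for *Gria3*, from -1.28 to 0.49 for *Gria4* and from -1.23 to 0.73 for *Grik5*. Without animal 3, 175 genes had an unadjusted p under 0.05 in place of 288. With the library size only, chosen after seeing the data, levels did not overlap between the types for 77 of the 7409 tested genes in place of 108, 0 of the 7 tested members in place of 1 and 0 of the 22 tested pathway genes in place of 1. The causes were not tested. Of the 47 pathway genes 28 had fewer than 10 reads in all.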
